A study of Apis mellifera with 6 samples.

Results

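The genes described here are 7 named chemosensory genes of the worker bee antenna, among 9362 genes listed in the antennal transcriptome. They are the 5 chemosensory protein (CSP) genes *CSP1*, *CSP2*, *CSP3*, *CSP4* and *CSP6*, the gustatory receptor (GR) gene *Gr10*, and the odorant receptor (OR) gene LOC100578724, whose synonym is *Or151*. They were found by their gene ID. The RNA came from antennae of adult worker bees (*Apis mellifera*), either of the dsx stop/stop genotype or wt, with 3 pools per genotype and 5 bees in each pool. The dsx stop/stop bees carry CRISPR-Cas9-induced stop mutations in both copies of *dsx*, a transcription factor gene of the sex-determination pathway, and the mutations arose independently in each bee, so that a pool may mix different stop alleles. The wt bees were the controls, and the age of the bees at RNA extraction is not given in the sources used here.

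The chemical senses of an insect antenna rest on proteins of different kinds. CSPs are small soluble proteins that are secreted, many of them into the lymph around the dendrites of sensory neurons, and that bind hydrophobic molecules such as fatty acids and their esters. GRs and ORs are membrane proteins of the sensory neurons themselves. An OR works together with a coreceptor, which in the honeybee is encoded by *Or2*. *CSP3* is also known as *ASP3* or *Asp3c*, for antennal-specific protein, and its product binds fatty acids. *Gr10* encodes a honeybee receptor that responds to amino acids.

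The base mean was the measure used here. It is the mean of a gene's normalized read counts over the 6 libraries of both genotypes, as the authors deposited it. A normalized read count is the number of reads assigned to a gene divided by the size factor of the library. It counts reads and not molecules, so that a long transcript gives more reads than a short one at the same number of molecules. Each gene has 1 such value, with no value per pool. From the base mean alone, the levels of the genotypes could therefore not be set apart, and a spread over the pools could not be computed. The authors' own columns for the comparison of the genotypes were not used, and no gene was tested for a difference between the genotypes. In antennal RNA, fewer cells that express a gene cannot be told apart from less RNA per cell. The targeted gene *dsx* had a base mean of 1278 over both genotypes, at rank 1499 of the listed genes, which does not check the genotype labels.

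The size factors of the 6 libraries ran from 0.202 to 2.36 and differed by up to 11.7-fold, as inferred from the smallest base means. They are not read totals. Taken as depths, with each gene at an equal level in all libraries, they would give more reads than the methods of the study state. The size factors also range more widely than the read numbers stated in those methods. The depth behind each value is therefore unknown, and neither read totals nor counting errors are given for the 7 genes. A base mean can also rest on 1 library, which could not be examined. The antennal marker *Or2*, like the other 33 genes with an OR symbol and the 19 with an odorant-binding protein symbol, was not analysed here, so the tissue was not checked against these markers. Of the hexamerin genes, for storage proteins of fat body and hemolymph, *Hex70a* had a base mean of 32.6, *Hex110* of 27.3 and *Hex70c* of 1.22. Other hexamerin genes were not looked up. The other markers set beforehand were vitellogenin, further antennal genes and genes of muscle, neurons and glia. No values are given for them, so RNA from other tissues was not checked.

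The 7 genes covered a wide range of base means in the antenna, and the CSP genes *CSP1* and *CSP3* stood far above the others. *CSP1* had a base mean of 58480 and ranked 11th of the 9362 listed genes. *CSP3* had a base mean of 48898 and ranked 16th. Only 4 listed genes lay between them. All ranks and shares hold among the listed genes only. Nearly all genes with an ID later than LOC724262 in the alphabet, those with OR and odorant-binding protein symbols among them, were not ranked. The median of all listed genes was 275 normalized counts, and *CSP1* was 212-fold and *CSP3* 178-fold over it. The next gene, *CSP4*, had a base mean of 2303 at rank 775, so that 91.7% of the listed genes were below it. LOC100578724 followed with a base mean of 1212 at rank 1584, above 83.1% of the listed genes. *CSP6* lay close to the median of all listed genes, with a base mean of 294 at rank 4562. *CSP2* and *Gr10* were the 2 genes below this median. Their base means were 114 (rank 5901) for *CSP2* and 60.5 (rank 6500) for *Gr10*, above 37.0% and 30.6% of the listed genes. *CSP6* was also below the median when only protein-coding genes were ranked, with 401 as their median base mean, or only genes whose base mean reached 10.

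**Figure D1:**
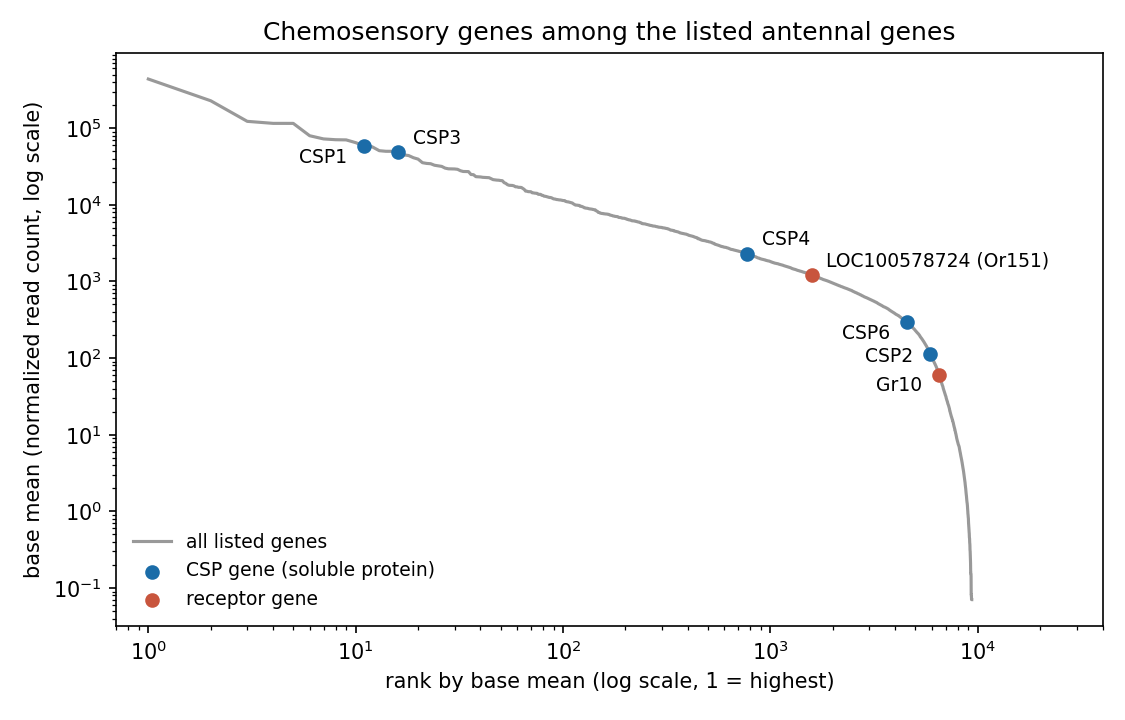
Base mean (normalized read count, log scale) against the rank of each listed gene (log scale), with the grey line for all 9362 listed genes, blue points for the 5 CSP genes and red points for the receptor genes. *CSP1* and *CSP3* sit at ranks 11 and 16, while *CSP2* and *Gr10* sit at ranks 5901 and 6500.

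On this scale of reads the order was thus *CSP1*, *CSP3*, *CSP4*, LOC100578724, *CSP6*, *CSP2* and *Gr10*, and the highest base mean was 966 times the lowest. The smallest step in the order was that from *CSP1* to *CSP3*, with a ratio of 1.196. Whether any of these steps exceeded the spread between the pools could not be computed.

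Few of the listed genes had a base mean above that of *CSP1*. Of these 10 genes, 9 were protein coding and 1 was the long noncoding RNA LOC113218660, with a base mean of 115159. The only ones with a name besides a locus number were *CYP6AQ1*, a cytochrome P450 gene of a family of oxidizing enzymes, with a base mean of 227119, and *Hsc70-4*, a gene for a chaperone of the heat shock protein family, with 122435. The highest base mean of all listed genes was that of LOC409173, with 436377. The others were LOC408421 (base mean 115190), LOC552366 (79472), LOC552418 (72213), LOC100576540 (70505), LOC409602 (70122) and LOC409675 (64583). *CSP1* alone took 0.593% of the sum of all listed base means, and *CSP3* took 0.495%.

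The 5 CSP genes and the 2 receptor genes differed in their summed base mean, but the base means of both classes overlapped. The 5 CSP genes together took 1.12% of the summed base means, and the 2 receptor genes took 0.0129%, a ratio of 86.5. Nearly all of the CSP sum, 97.5%, came from *CSP1* and *CSP3*. The base means ran from 114 to 58480 with a median of 2303 in the CSP genes and from 60.5 to 1212 in the receptor genes. All 5 CSP genes had a base mean above that of *Gr10*. However, only 3 of the 5 were above LOC100578724, and *CSP6* and *CSP2* were below it. The CSP genes differed among themselves by up to 511-fold, and the receptor genes by 20.0-fold. These lists hold 5 and 2 genes found by name, and no test was made between them.

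Because base means count reads, the levels were also compared per length. Transcript lengths were not used here, but a transcript cannot be longer than its gene, and it was taken to be at least as long as a read of 150 bp. The base mean divided by the span of the gene and the base mean divided by the read length are then the lowest and highest values that the level per kb of transcript can have. *CSP1* lies on chromosome LG8 from 6453930 to 6454392 and spans only 463 bp with 1 annotated transcript, so that its level per kb was between 126310 and 389870. *CSP3*, on LG5 from 2779893 to 2781325 with a span of 1433 bp and 1 transcript, was between 34123 and 325990 per kb. *CSP4*, on LG5 from 2788845 to 2791998 with a span of 3154 bp and 2 transcripts, was between 730 and 15352 per kb.

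The receptor genes and the lower CSP genes had overlapping ranges per length. LOC100578724, on LG2 from 2506794 to 2509525 with a span of 2732 bp and 2 transcripts, was between 444 and 8081 per kb. *CSP6*, on LG1 from 25099624 to 25101768 with a span of 2145 bp and 2 transcripts, was between 137 and 1958 per kb. *CSP2*, on LG2 from 15497768 to 15502009 with a span of 4242 bp and 1 transcript, was between 27.0 and 762 per kb. *Gr10* has the longest span, 13441 bp on LG4 from 10523031 to 10536471 with 3 transcripts, and was between 4.50 and 404 per kb. All positions are those of the RefSeq annotation of Amel_HAv3.1, and spans include introns.

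**Figure D2:**
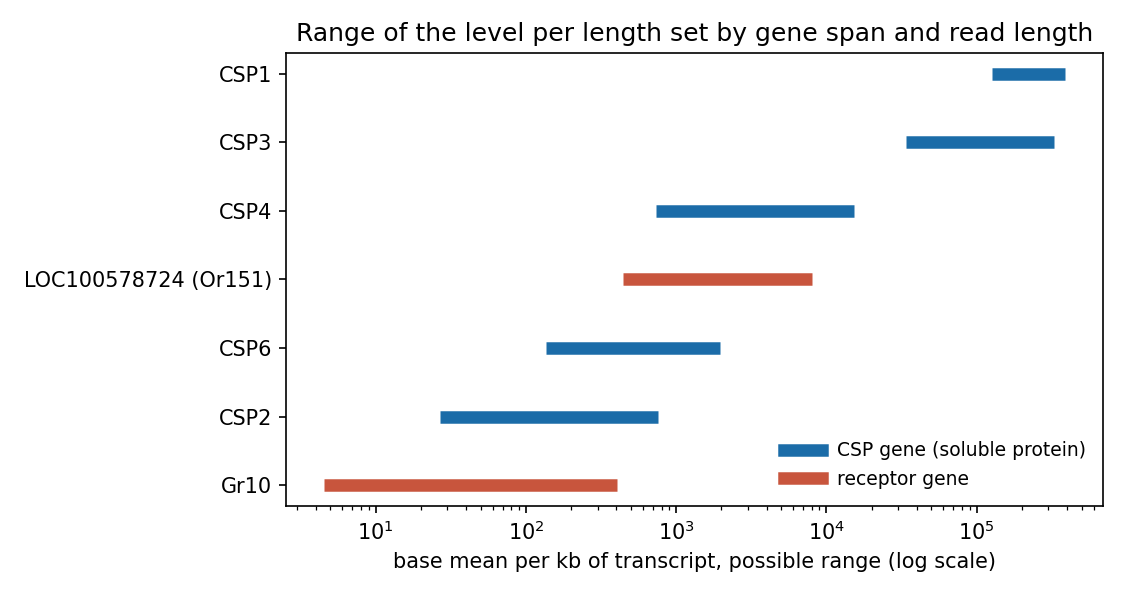
Possible range of the base mean per kb of transcript (log scale) for each of the 7 genes, from the base mean per kb of gene span to the base mean per read length, in blue for CSP genes and red for receptor genes. The ranges of *CSP1* and *CSP3* overlap each other and lie apart from those of the other 5 genes.

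Of the 21 pairs of genes, 12 had ranges that did not overlap, so that their order per length was fixed whatever the transcript lengths. In 10 of them *CSP1* or *CSP3* was above one of the 5 other genes. The level per kb of *CSP1* was at least 8.23 times that of *CSP4* and at least 15.6 times that of LOC100578724. The level per kb of *CSP3* was at least 2.22 times that of *CSP4* and at least 4.22 times that of LOC100578724. The other 2 pairs were *CSP4* over *Gr10*, with at least 1.81 times, and LOC100578724 over *Gr10*, with at least 1.10 times. For the remaining 9 pairs the order per length was not fixed. Among these were *CSP1* and *CSP3*, which would have the same level per kb if *CSP1* had a transcript of 463 bp and *CSP3* one of 387 bp. They also include *CSP4* and LOC100578724, as well as *CSP2* and *Gr10*.

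*CSP3* and *CSP4* are neighbors on LG5, and their base means differed by 21.2-fold. The gap between them is 7519 bp and holds 1 annotated gene, LOC724561, which was not analysed here. *CSP3* had the higher level of this pair also per length. The *dsx* gene lies on the same chromosome, 737.5 kb from the end of *CSP4*. *CSP1*, *CSP6* and *Gr10* each lie on another chromosome, and *CSP2* and LOC100578724 lie far apart on LG2.

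The listed genes next to *CSP1* and *CSP3* had lower base means, as had nearly all listed genes. In the list as a whole, 99.88% of the genes were below *CSP1* and 99.83% below *CSP3*, so the neighbors show nothing particular to these places. *CSP1*, with a base mean of 58480, lies between LOC412323, at a distance of 2156 bp and with a base mean of 1348, and LOC409538, at a distance of 1374 bp and with 272. The 6 nearest listed protein-coding genes of *CSP1*, 3 on each side, had base means from 116 to 7316, all below it. For *CSP3* these 6 genes, *CSP4* among them, ran from 0.376 to 2303, and the farthest lies 423863 bp away. Only listed genes were taken as neighbors, and whether other genes lie in between was not examined for this distance. For *CSP6*, with 294, the nearest gene LOC409462 ends only 196 bp away and had a base mean of 610, and all 6 neighbors were above *CSP6*, from 308 to 1028. *CSP2* had 5 of its 6 neighbors above it, with a range from 8.99 to 1192. Of all listed genes, 51.3% were below *CSP6* and 37.0% below *CSP2*, and no test was made against these shares.

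The 2 receptor genes differed from their listed neighbors in opposite directions, as they did from the list as a whole. Of all listed genes, 30.6% were below *Gr10* and 83.1% below LOC100578724. Whether the neighbors depart from these shares was not tested. *Gr10*, with a base mean of 60.5, was below all 6 of its listed neighbors, which had base means from 139 to 4491. The nearest ones, LOC411204 at 1229 bp and LOC408917 at 1333 bp, had 1217 and 2578 normalized counts. LOC100578724, with 1212, was above all 6 of its neighbors, which ran from 1.49 to 477. Its nearest neighbors are LOC102655559 at 260 bp with a base mean of 269 and LOC100579011 at 1262 bp with 477. Whether reads were shared between similar neighboring genes was not tested.

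**Figure D3:**
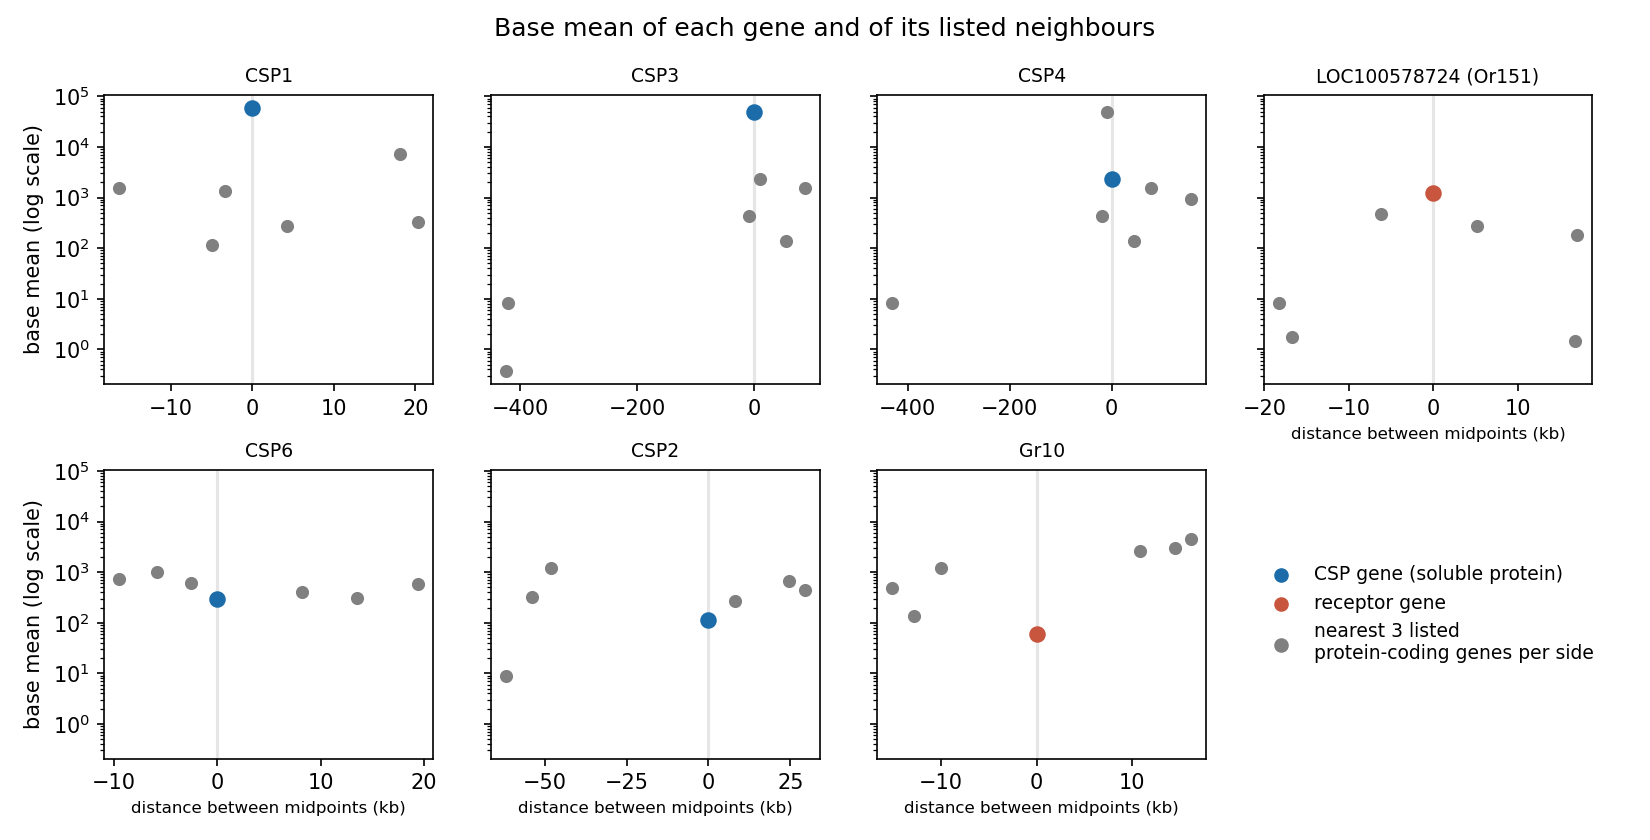
Base mean (log scale) of each of the 7 genes at distance 0 and of its 3 nearest listed protein-coding genes on each side (grey), against the distance between gene midpoints in kb, on an axis of its own for each gene. *CSP1*, *CSP3* and LOC100578724 lie above all 6 of their neighbors, and *CSP6* and *Gr10* lie below all 6.

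No gene with an OR symbol was analysed here, and LOC100578724 was the only one of the 7 genes with an OR synonym. The synonyms of the other listed genes were not searched. LOC100578724 does not belong to the largest group of neighboring OR genes. That group holds 24 genes with an OR symbol, from *Or4* to *Or58*, within 161.6 kb on LG2, and starts 7.47 Mb from the end of LOC100578724. The genes with an OR symbol were not analysed here, but 24 protein-coding genes of this stretch whose symbol is a locus number were listed. What these genes encode was not determined. Their base means ran from 16.5 to 1041 with a median of 94.9, and 35.1% of all listed genes were below this median. The 4 highest had base means of 1041, 469, 462 and 269, and the next, LOC100577715, had 178.

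LOC100578724, with a base mean of 1212, was above all 24 of these genes. The highest of them, LOC100577938, had 1041. Per kb of gene span, LOC100578724 had 444 normalized counts, and 1 of the 24 genes was above it, with 571. *Gr10*, with a base mean of 60.5, was below 21 of the 24 and above the other 3. Per kb of its long span, *Gr10* had 4.50 normalized counts, which was below the lowest of the 24 genes, with 10.1.

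**Figure D4:**
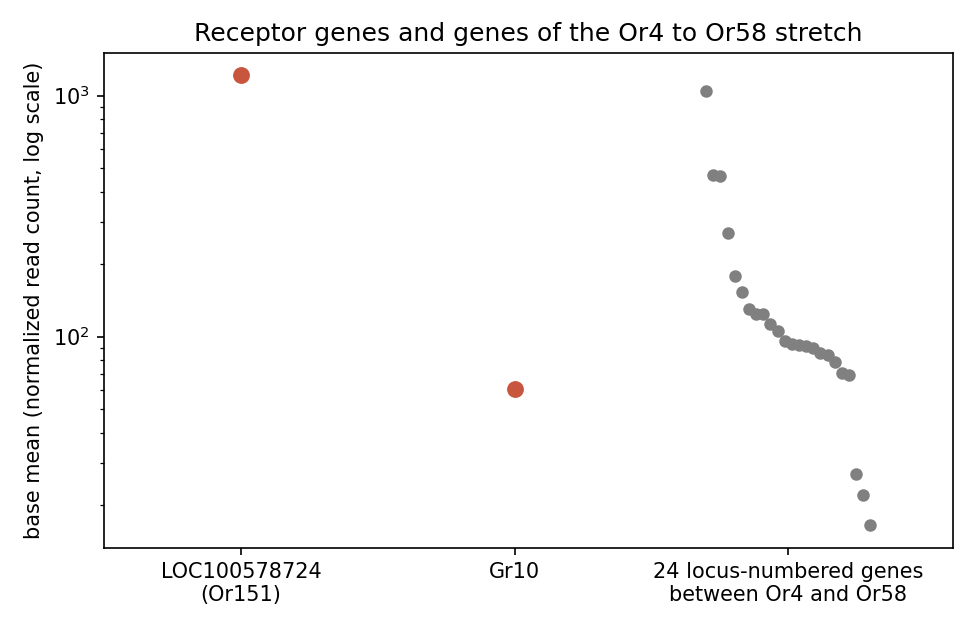
Base mean (normalized read count, log scale) of LOC100578724 and *Gr10* (red) and of the 24 listed protein-coding genes with a locus number between *Or4* and *Or58* (grey, sorted). LOC100578724 at 1212 lies above all 24, and *Gr10* at 60.5 lies above 3 of them.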

How the data were processed

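The 6 antennal mRNA libraries were 3 of dsx stop/stop worker bees and 3 of wt worker bees. The authors trimmed adapters with bcl2fastq2, assigned the 150-bp single-end reads to transcripts of Amel_HAv3.1 with kallisto and compared the genotypes with DESeq2. They name a transcripts-per-kilobase-million normalization. However, the lowest deposited base mean, 0.0705, is shared by 32 genes with spans from 410 to 39941 bp, as values not divided by length are. Versions of kallisto and DESeq2 are not given in the sources used here. The deposited table gives 1 line per gene. Its base mean, the authors' mean normalized count over both genotypes, was used with decimal commas read as points. Its other columns hold the authors' log2 fold change, standard error, Wald statistic, p-value, adjusted p-value and a -log10 value. As results of the authors' own comparison they were not used, and no test was made.

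The genes and lists were chosen with earlier results of these data known. Named besides the 7 genes are those with a base mean above the highest of the 7, and *dsx*. Of the markers set beforehand, only *Or2* and hexamerin genes are named. Neighboring genes and those of the OR stretch were added after their values were seen. Gene descriptions, transcript lengths and sequences were not at hand, so families were set by symbol or synonym, with positions from RefSeq, which matched 9361 of the 9362 IDs. Size factors are 1 divided by 6 times each base mean under 1 that at least 3 genes share and that is not a sum of smaller ones. The procedure was run on simulated whole-number counts, whereas the authors' counts were estimates, so its accuracy on these data was not checked. Read totals per library were not computed. Nearly all genes with an ID later than LOC724262 in the alphabet were not analysed here. Python 3.11.15, numpy 2.4.6 and pandas 2.3.3 were used.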

Additional observations from a re-analysis of the deposited data

How the results depend on the processing

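The share of listed genes below each gene (its percentile) was recomputed in other sets of genes. When the ranking took only the 7862 genes whose base mean reached 10, *CSP2* was at 24.9, *CSP4* at 90.1, *CSP6* at 42.0, *Gr10* at 17.3 and LOC100578724 at 79.9, with medians of 90.1 for the CSP genes and 48.6 for the receptor genes. Among the 7610 protein-coding genes *CSP2* was at 25.2, *CSP4* at 90.0, *CSP6* at 41.2, *Gr10* at 18.9 and LOC100578724 at 79.5, with medians of 90.0 for the CSP genes and 49.2 for the receptor genes. *CSP1* and *CSP3* stayed within the 95% binomial interval of their percentile in both sets, and the other genes fell below theirs. The lower percentiles follow from leaving out low genes. The interval takes the listed genes as random draws and measures no spread between pools. Over all settings, 23 of 29 recomputed values lay outside their interval, those of *CSP1* and *CSP3* per kb of gene span among them. For the medians of both classes, the set of protein-coding genes was chosen after seeing the data, as were the 2 settings that follow. Per kb of gene span, *CSP1* was at 99.98, *CSP2* at 40.9, *CSP3* at 99.95, *CSP4* at 95.01, *CSP6* at 69.0, *Gr10* at 23.1 and LOC100578724 at 91.0, with a median of 95.01 for the CSP genes and of 57.1 for the receptor genes, which hardly moved. With families by symbol only, the receptors were *Gr10* alone, at 30.6 in place of a median of 56.8, and the CSP median was 91.7 as before. Ranks per kb of transcript and families by description were not run because neither length nor description was at hand. No paired analysis was possible because each base mean pools all 6 libraries, and for the same reason no library could be left out.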
